A study of Mus musculus with 1483 samples.

Results

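The Rorb excitatory neurons of layers 4 and 5 were chosen by the measured levels of 5 genes, as the cells with at least 10 CPM (reads of a gene scaled to a common total per cell) of Slc17a7, under 10 CPM of Gad1 and of Gad2, at least 50 CPM of Rorb and under 50 CPM of Fezf2. This rule found 65 cells among 278 glutamatergic cells, or 23.4%, and among 1483 cells in all. Slc17a7 encodes a vesicular glutamate transporter, Gad1 and Gad2 make GABA, and Fezf2 is a transcription factor of deep-layer projection neurons. The other 213 glutamatergic cells comprised 94 cells with at least 50 CPM of Fezf2 (Fezf2 cells), of which 38 had at least 50 CPM of Rorb as well, and 119 cells with neither gene at 50 CPM.

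The cells came from the primary visual cortex (VISp) of 33 C57Bl/6J mice and were profiled one by one by SMARTerv4 full-length RNA-seq. Each mouse carried a viral (AAV) reporter in which 1 of 11 enhancers (eHGT_058h, eHGT_078h, eHGT_023h, eHGT_017h, eHGT_082h, eHGT_019h, eHGT_064h, eHGT_079h, eHGT_128h, eHGT_140h or hDLXI56i) drove the yellow fluorescent protein SYFP2, and cells were sorted for that fluorescence. Every group shared this design, and no age of a mouse was used here. Cells without that fluorescence were not collected, which limits these 65 cells as a sample of the cortical type.

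RORβ, the product of Rorb, is a nuclear receptor of the retinoic acid-related orphan family, which binds DNA at the half-site AGGTCA and acts mainly as a transcriptional activator. In the mouse cortex Rorb is a classical marker of layer 4, the layer that receives the thalamic input to sensory areas, and it is also expressed in layer 5 neurons that project within the telencephalon (intratelencephalic, IT). Layer 5 holds in addition extratelencephalic (ET) neurons, which project to the brainstem and spinal cord and depend on Fezf2, and layer 6 holds corticothalamic (CT) and IT neurons.

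Rorb, Slc17a7, Gad1, Gad2 and Fezf2 chose the cells, so their values are a description without a test. Rorb ran between 110 and 1275 CPM in the 65 cells, with a median of 386 CPM. The lowest cells inside the threshold had 110 and 133 CPM, and the highest cells outside it with low Fezf2 had 48.7 and 37.8 CPM, so no cell lay between. Fezf2 had no such gap, with 44.3 CPM in the highest cell inside its threshold and 50.4 CPM in the lowest Rorb-positive cell outside it. In 25 of the 65 cells Fezf2 was at or above 10 CPM, and in 31 it was at 0. Gad1 was at 0 in every one of them, and Gad2 reached at most 3.62 CPM.

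The marker genes bore the label out in part. Of the 65 Rorb cells, 49 had at least 10 CPM of Endou (an RNA-cleaving endonuclease), against 31 of 94 Fezf2 cells and 0 of 119 cells with neither gene. Scnn1a, a subunit of the epithelial sodium channel and a layer 4 marker, reached 10 CPM in 33 Rorb cells, against 20 Fezf2 cells and 1 cell with neither. Deptor, an inhibitor of the mTOR kinase, reached it in 52 Rorb cells, 41 Fezf2 cells and 46 cells with neither. Hsd11b1, which regenerates active glucocorticoid, reached it in 38 Rorb cells, against 54 Fezf2 cells and 6 cells with neither. For background, 1125 GABAergic cells of the same table held 0 cells at 10 CPM of Endou, 42 of Hsd11b1 (3.73%), 56 of Scnn1a (4.98%) and 608 of Deptor (54%), so that Deptor was not limited to excitatory cells here. All 4 of these markers reached 10 CPM in 21 Rorb cells, 3 did in 18, 2 in 15, 1 in 4 and none in 7.

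Markers of other cells were low. Slc32a1, Dlx2, Dlx5, Dlx6, Dlx6os1, Lhx6, Sst, Pvalb and Vip, which define GABAergic interneurons, were at 0 in all 65 cells, and 1 of 12 genes of that list passed the filter on low values. In the 5 mice compared below, the 12 genes summed to between 0 and 28.4 CPM in Rorb cells and between 0.133 and 3.31 CPM in other glutamatergic cells. The highest sum came from 2 genes, Adarb2, at or above 10 CPM in 4 of the 65 cells, and Erbb4, in 1 of them. The 14 glial and vascular markers summed to between 156 and 208 CPM in Rorb cells and between 98.9 and 195 CPM in other glutamatergic cells, most of it Mbp and Aldh1l1, with Cldn5 and Gfap at 0 in Rorb cells. No gene of either list passed the test.

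Rorb cells were found in 12 mice, and their number differed between enhancers. In eHGT_058h mice the Rorb share of glutamatergic cells was 58.6% in MouseID-463481 (17 of 29 cells, 95% exact interval 38.9% to 76.5%), 40.5% in MouseID-497551 (15 of 37, 24.8% to 57.9%) and 30.8% in MouseID-458159 (8 of 26, 14.3% to 51.8%). In eHGT_078h mice it was 16.7% in MouseID-453328 (8 of 48, 7.48% to 30.2%), 4.55% in MouseID-498749 (2 of 44, 0.555% to 15.5%) and 2.27% in MouseID-454782 (1 of 44, 0.0575% to 12%). The groups did not overlap. The means were 43.3% ± 14.1 in eHGT_058h mice and 7.83% ± 7.74 in eHGT_078h mice (SD, n = 3 each), a difference of 35.5 percentage points with a 2-sided exact permutation p = 0.1, which is the smallest that 3 mice against 3 can give. Cell names begin with the letter G in mice MouseID-458159, MouseID-463481, MouseID-453328 and MouseID-454782 and with J in mice MouseID-497551 and MouseID-498749, and the labels do not say what the letter is. Within each letter the eHGT_058h values were also the higher ones.

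Of all sorted cells, Rorb cells made up 33.9% ± 14.1 in the 3 eHGT_058h mice and 1.80% ± 4.08 in the other 30 mice (SD), whose highest value was 16.7% and whose median was 0%. The difference of 32.1 percentage points had a 2-sided exact permutation p = 0.000183, the smallest that 5456 assignments of mice can give. Most of the other enhancers gave few glutamatergic cells of any kind. There were 0 in eHGT_128h, eHGT_140h and hDLXI56i, 1 each in eHGT_019h, eHGT_064h and eHGT_079h, and 4 each in eHGT_017h and eHGT_082h. A share near 0 was thus set in advance there, and the test cannot separate Rorb cells from glutamatergic cells as a whole. The eHGT_023h mice gave 10 Rorb cells of 138, eHGT_078h 11 of 140, eHGT_017h 2 of 118 and eHGT_082h 2 of 87. In the other 6 groups no Rorb cell was seen among 128 to 185 cells per group.

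**Figure D1:**
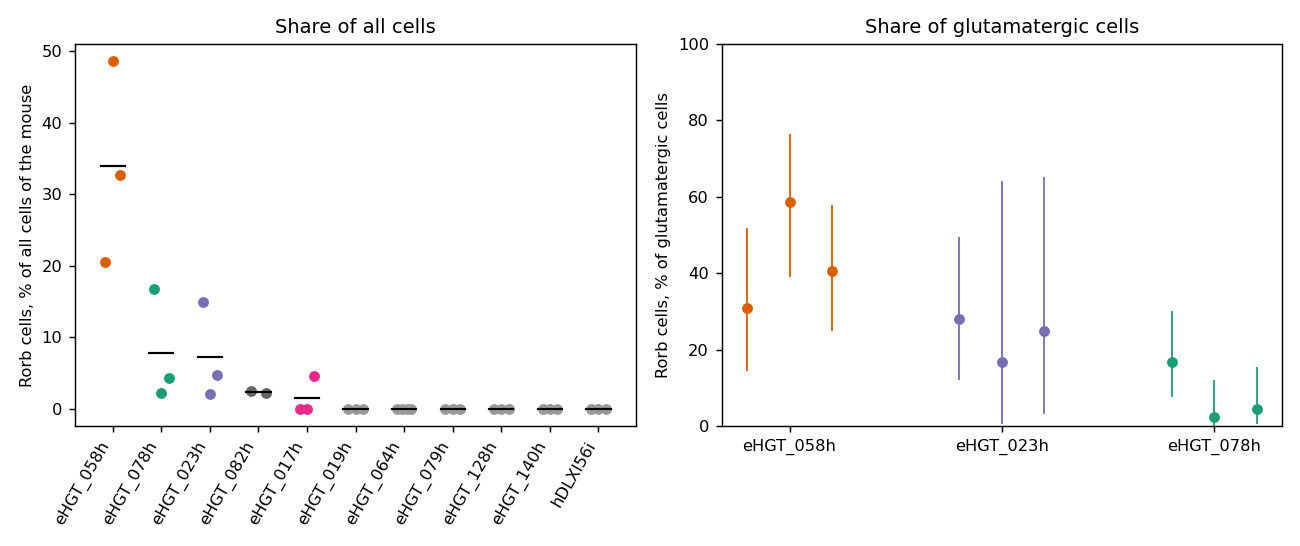
Rorb cells as a percentage of all cells of each mouse, by enhancer (left, each point 1 mouse, bars the group mean), and as a percentage of glutamatergic cells in the 3 enhancers with the most such cells (right, each point 1 mouse with its 95% exact binomial interval). The eHGT_058h mice lie between 30.8% and 58.6% of glutamatergic cells, and the eHGT_078h mice at or below 16.7%.

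Gene levels were compared within mice. In 5 mice with at least 5 cells of both kinds (55 Rorb cells and 110 other glutamatergic cells in all), CPM was averaged over cells, and log2(mean CPM + 1) was tested with limma with the mouse as a block. A gene is called higher or lower below where its p, adjusted by Benjamini-Hochberg over 13172 genes, was under 0.05 and the log2 difference was at least 1. Depth over all mice was alike, with a median of 577920 reads per Rorb cell (79005 to 777497) and 594551 per other glutamatergic cell (28853 to 907004). At 100000 reads per cell, the median number of genes detected was lower in Rorb cells by 396 genes on average over the 5 mice, with an exact sign-flip p = 0.125 where 5 pairs can give no less than 0.0625. It was 7694, 7880, 7574 and 8558 in Rorb cells of mice MouseID-497548, MouseID-458159, MouseID-463481 and MouseID-497551, against 8304, 8483, 8301 and 8781 in their other glutamatergic cells, and in MouseID-453328 it was 8600 against 8418.5. Without thinning, the medians by mouse ran between 8900 and 10547.5 genes in Rorb cells and between 10039.5 and 10763.5 in the others. Cells under 100000 reads were left out of the thinned values, and over all mice these were 1 of 65 Rorb cells and 5 of 213 other glutamatergic cells.

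Against the other glutamatergic cells, 598 genes were higher in Rorb cells (4.54% of those tested) and 430 were lower (3.26%), or 7.8% in either direction. Without MouseID-453328 the count of calls was 631 in place of 1028, and in the 3 mice whose cell names begin with G (MouseID-453328, MouseID-458159 and MouseID-463481) it was 287. Removing the 38 cells with both Rorb and Fezf2 from the comparison gave 2267 calls. When each profile was centred within 5 bins of gene span (the genomic length of a gene), 264 genes were higher and 499 were lower, an alternative chosen after seeing the data and described with the gene lists below.

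The genes named next are the 10 largest falls and 10 largest rises among called genes that had at least 20 CPM in the higher class and the same direction in every mouse, so their shared direction is part of the choice and not a result. Most of the 10 falls were close to absent from Rorb cells. Sema3e (chr5:14025276-14256689, mm10), a secreted axon guidance semaphorin, averaged 0.247, 0, 0.478, 0.63 and 0.259 CPM in the Rorb cells of mice MouseID-453328, MouseID-458159, MouseID-463481, MouseID-497551 and MouseID-497548, against 96.8, 96.4, 98.9, 113 and 46.5 CPM in their other glutamatergic cells. The log2 difference was -6.07 ± 0.37 (SE, limma adjusted p = 1.53e-05). None of the 65 Rorb cells reached 10 CPM of Sema3e, against 123 of 213 other glutamatergic cells. The vesicle protein gene Syt17 had 0.571 ± 0.536 CPM in Rorb cells against 82.4 ± 11 CPM (SD, n = 5 mice each), a log2 difference of -5.78 ± 0.36. Mas1, the receptor for angiotensin-(1-7), stood at 0.501 ± 0.57 CPM in Rorb cells and 76.3 ± 14.9 CPM in the others. Cd24a, a surface glycoprotein, had 0 reads in all 65 Rorb cells and Ramp3, which modifies calcitonin-family receptors, likewise. Set against 3 reads over all Rorb cells (0.0817 CPM), Cd24a was at least 695-fold lower and Ramp3 at least 419-fold lower in Rorb cells than in the other 213 cells, which covers counting error only.

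The other falls were those of Bmp3, Fst, Rasl10a, Met and Tnfaip6. Bmp3, a bone morphogenetic protein, averaged 0.408 ± 0.913 CPM in Rorb cells and 65.8 ± 21.8 CPM in the others. Fst, which binds activins and blocks them, averaged 2.22 ± 2.76 CPM against 97.1 ± 27.7 CPM. The small GTPase gene Rasl10a and the receptor tyrosine kinase gene Met fell by 5.21 and 4.72 on the log2 scale. Tnfaip6, a hyaluronan-binding protein, had 24.3 ± 48.1 CPM in Rorb cells against 296 ± 249 CPM, and its call was lost without MouseID-497551 (log2 -5.04, limma adjusted p = 0.118).

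The largest rises were smaller than the largest falls. Grik1 (chr16:87895901-88290863), the GluK1 subunit of kainate receptors, averaged 139, 156, 105, 168 and 183 CPM in the Rorb cells of mice MouseID-453328, MouseID-458159, MouseID-463481, MouseID-497551 and MouseID-497548, against 1.73, 35, 36.1, 42 and 10.3 CPM in their other glutamatergic cells. The log2 difference was 3.06 ± 0.57 (SE, limma adjusted p = 0.0105). Kcnh5 (chr12:74897217-75177332), an ether-à-go-go potassium channel, was the most even of the rises, with 123 ± 23.8 CPM in Rorb cells against 23.7 ± 12.3 CPM (SD, n = 5 mice each), a log2 difference of 2.44 ± 0.23. Hs3st4, a heparan sulfate sulfotransferase, had 187 ± 67.9 CPM against 42.9 ± 23.6 CPM. Tshz2, a zinc-finger factor used as a marker of near-projecting neurons, had 26 ± 16.1 CPM against 3.06 ± 2.94 CPM. Lypd1, the other near-projecting marker tested, fell to 2.04 ± 1.82 CPM in Rorb cells, against 18.4 ± 15.5 CPM (log2 -2.64 ± 0.5, limma adjusted p = 0.00607). Mtus1, Gpc5, Adamts17, Thbs2 and Vav3 had log2 differences between 2.37 and 2.6, and Rspo1, the second of the 10 rises at 3.04, is described further below.

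**Figure D2:**
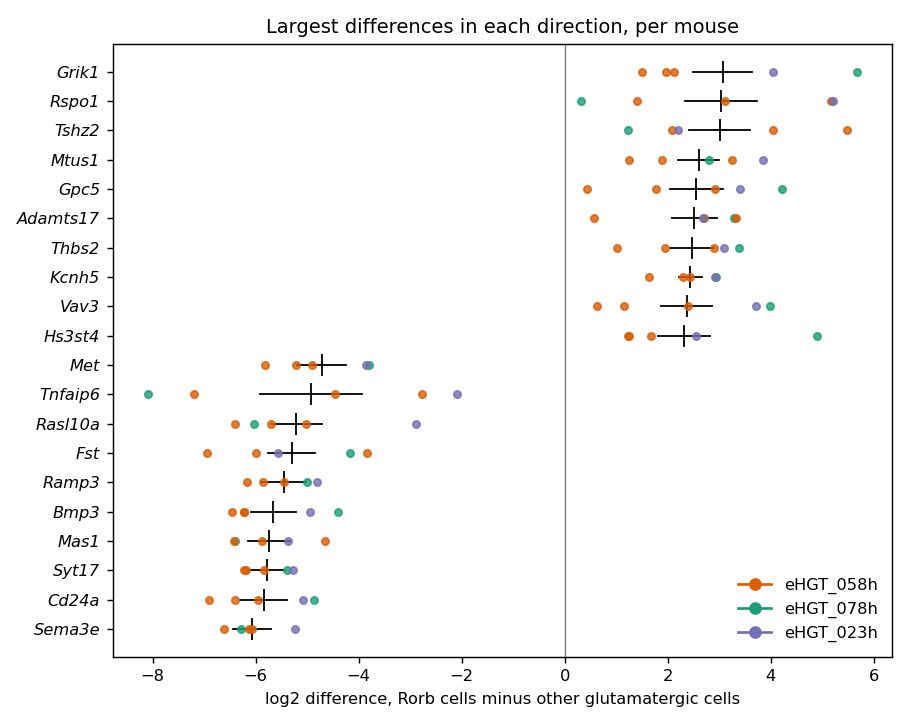
Log2 difference of mean CPM + 1 between Rorb cells and other glutamatergic cells for the 10 largest rises and 10 largest falls, with points for the 5 mice coloured by enhancer, a vertical tick for the fitted difference and a line for ± 1 SE. The genes were chosen among those with the same direction in every mouse, which puts all points of a gene on 1 side of 0. Falls reach -6.07 for Sema3e and rises 3.06 for Grik1.

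A further 6 mice, with 9 Rorb cells and 99 other glutamatergic cells, had too few cells to enter that comparison and so did not choose these 20 genes. The mean over those mice had the same direction for all 20. Grik1 was at 233 CPM in Rorb cells of those mice and at 3.82 CPM in their other cells, higher in 6 of 6 mice. Sema3e was at 0.844 CPM against 87.8 CPM, and Syt17 at 0 against 91.5 CPM, both lower in 6 of 6. The rises were less even from mouse to mouse. Adamts17 was higher in 2 and lower in 3 of the 6 mice, Gpc5 and Thbs2 were higher in 1 and lower in 3, and Tshz2 was higher in 3 and lower in 2. Mtus1, Kcnh5, Vav3 and Hs3st4 were each lower in 1 mouse, and Rspo1 was higher in 4 and lower in none. Of the falls, Rasl10a was higher in 2 of 6 mice, with means of 15.8 CPM in Rorb cells and 73.4 CPM in the others, and the other 9 were higher in none. Mas1 and Ramp3 were lower in 6 of 6 mice. Bmp3 and Tnfaip6 were lower in 4, and Cd24a, Fst and Met in 3, with equal values in the rest.

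The named markers differed in how firmly they marked Rorb cells within a mouse. Endou (chr15:97711015-97731405) averaged 91.1, 74.25, 107, 92.6 and 55.1 CPM in the Rorb cells of mice MouseID-453328, MouseID-458159, MouseID-463481, MouseID-497551 and MouseID-497548, against 3.66, 43.6, 14.4, 57.6 and 12.9 CPM in their other glutamatergic cells. It was higher in 5 of 5 mice, with a log2 difference of 2.11 ± 0.47 (SE, limma adjusted p = 0.0159). The call was lost without MouseID-463481 (adjusted p = 0.0555) and without MouseID-497548 (adjusted p = 0.0535). Scnn1a (chr6:125314271-125344943) had 24.3 ± 8.22 CPM in Rorb cells against 7.71 ± 10.1 CPM, higher in 4 of 5 mice (log2 2.25 ± 0.62, limma adjusted p = 0.0278). Its call was lost without MouseID-453328, MouseID-463481 or MouseID-497548, with adjusted p of 0.0966, 0.0555 and 0.0986.

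Deptor (chr15:55112317-55259273) had 113 ± 30.4 CPM in Rorb cells against 47.5 ± 27.7 CPM, was higher in 5 of 5 mice and missed the threshold (log2 1.53 ± 0.52, limma adjusted p = 0.0798). Hsd11b1 (chr1:193221640-193264045) averaged 151, 121, 60.1, 146 and 38.7 CPM in the Rorb cells of mice MouseID-453328, MouseID-458159, MouseID-463481, MouseID-497551 and MouseID-497548, against 1.36, 172, 81.2, 109 and 24.9 CPM in their other glutamatergic cells. In mice MouseID-458159 and MouseID-463481 it was lower in Rorb cells, and the log2 difference of 1.22 ± 1.08 was not called (limma adjusted p = 0.5). Cells with both Rorb and Fezf2 were 1 of 40 other cells in MouseID-453328, 8 of 18 in MouseID-458159 and 4 of 12 in MouseID-463481. They were 11 of 22 in MouseID-497551 and 3 of 18 in MouseID-497548. Of the 38 such cells in all mice, 36 reached 10 CPM of Hsd11b1, 36 of Deptor and 31 of Endou. The part of these cells in the spread between mice was not tested. Whrn, a scaffold protein best known from hair cells, had 105 ± 29.9 CPM against 32.9 ± 23.3 CPM, a log2 difference of 2.08 ± 0.49, and lost its call without MouseID-497548 (limma adjusted p = 0.0564). Rora, the paralog of Rorb, had 1409 ± 625 CPM against 392 ± 189 CPM and missed the threshold (limma adjusted p = 0.0666).

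**Figure D3:**
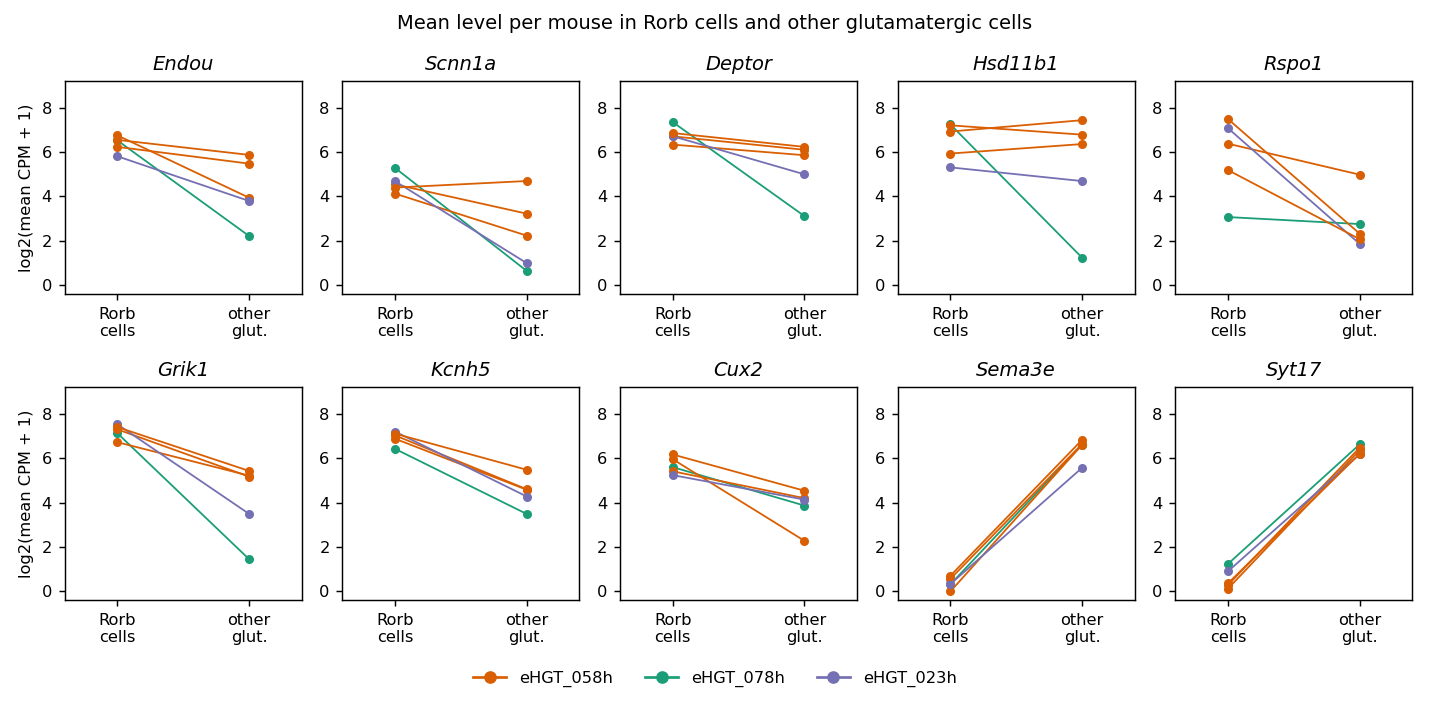
Mean level as log2(mean CPM + 1) of 10 genes in Rorb cells (left of each panel) and other glutamatergic cells (right), with 1 line per mouse, coloured by enhancer. Sema3e and Syt17 are near 0 in the Rorb cells of every mouse, while Hsd11b1 changes direction between mice.

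The other glutamatergic cells are of 2 kinds, which were set against Rorb cells separately in 1 fit over 7 mice. These comparisons share the Rorb cells with each other and with the one above. Against the cells with neither gene, 1354 genes were higher in Rorb cells (10.4%) and 716 were lower (5.5%) of 13028 tested, or 15.9% in either direction, and centred by gene span 828 were higher and 938 lower. Galntl6, an N-acetylgalactosaminyltransferase-like gene, had 727 ± 444 CPM in Rorb cells (SD, n = 5 mice) against 2.33 ± 1.08 CPM (n = 7 mice), a log2 difference of 7.39 ± 0.62. Thsd7a, a thrombospondin-domain protein, had 251 ± 163 CPM against 0.727 ± 0.96 CPM, with the call lost in the letter G mice alone (limma adjusted p = 0.0509). Ptprm, an adhesive receptor phosphatase, had 103 ± 59.4 CPM against 0.357 ± 0.583 CPM. Endou had 0 reads in all 119 cells with neither gene. Set against 3 reads over those cells (0.0448 CPM), it was at least 1743-fold higher in Rorb cells, a bound for counting error only. Hsd11b1 was called here, with 103 ± 51.1 CPM against 1.33 ± 1.5 CPM. The largest falls were those of Bmp3, Cd24a, Sema3e, Fst and Syt17, all among the 10 falls already given.

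Against the Fezf2 cells, 196 genes were higher in Rorb cells (1.5%) and 139 were lower (1.07%), or 2.57% in either direction, and centred by gene span 87 were higher and 185 lower. This count rests on single mice. It was 1 without MouseID-497548, 4 without MouseID-453328, 93 without MouseID-498749, 128 without MouseID-454782 and 612 without MouseID-458159, against 335 with all. Rorb and Fezf2 profiles came from the same animal in 4 mice. The Fezf2 cells differed in make-up between mice. Rorb also reached 50 CPM in 8 of 8 of them in MouseID-458159, 11 of 11 in MouseID-497551 and 3 of 6 in MouseID-497548. It did in 1 of 20 in MouseID-453328, 0 of 16 in MouseID-454782 and 7 of 18 in MouseID-498749. The part of this make-up in the count was not tested. Pparg, a nuclear receptor best known from fat cells, was the largest rise, with 44.8 ± 18.9 CPM in Rorb cells (SD, n = 5 mice) against 1.36 ± 2.43 CPM in Fezf2 cells (n = 6 mice), a log2 difference of 4.55 ± 0.52 (limma adjusted p = 0.00155). It was not called against the cells with neither gene, which averaged 30.4 ± 12.2 CPM (n = 7 mice, log2 0.46 ± 0.49, limma adjusted p = 0.513). At 10 CPM, 28 of 65 Rorb cells had Pparg, against 6 of 94 Fezf2 cells and 84 of 119 cells with neither gene. Of the 10 genes named by the rule it was the one that kept its call without each mouse in turn, and the single call left without MouseID-497548. Metrnl had 30.6 ± 19.5 CPM against 1.53 ± 0.972 CPM, and lost its call without MouseID-497548 (limma adjusted p = 0.0607). Without MouseID-453328, the calls of Alcam, Cntfr, Cux2, Gpr83, H2-M3, Mas1, Rxfp1 and Syt2 were lost with limma adjusted p between 0.0637 and 0.207.

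Of 8 markers of layer 5 ET neurons tested, 3 were lower in Rorb cells than in Fezf2 cells and none was higher, with a median log2 difference of -2.73 against -0.003 over all genes. Over all genes tested 1.07% were lower in this comparison. Bcl11b, the factor CTIP2, was lower in 3 of 4 mice, with 0.0643 ± 0.0995 CPM against 47.9 ± 49.2 CPM, and 1 of 65 Rorb cells reached 10 CPM of it, against 57 of 94 Fezf2 cells. Crym had 35.5 ± 16.3 CPM in Rorb cells against 238 ± 120 CPM in Fezf2 cells, lower in 4 of 4 mice. Both calls were lost without MouseID-497548. None of Endou, Scnn1a, Deptor and Hsd11b1 was called against Fezf2 cells. The 38 cells that carry both Rorb and Fezf2 had these markers in the following numbers, with 31 at 10 CPM of Endou, 36 of Hsd11b1, 20 of Scnn1a and 2 of Bcl11b, and with 0 at 10 CPM of Sema3e.

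Within the 65 Rorb cells, the values fell into cells with Rspo1 and cells with Hsd11b1. Rspo1 encodes R-spondin 1, a secreted enhancer of Wnt signalling. At 10 CPM, 24 cells had Rspo1 without Hsd11b1, 33 had Hsd11b1 without Rspo1, 5 had both and 3 had neither. Spearman's rho between them was -0.75 across the 65 cells, a description over cells that share mice and enhancers. Both kinds were seen within 7 mice. MouseID-463481 had 7 and 7, MouseID-458159 had 5 and 3, MouseID-497548 had 3 and 4, and MouseID-497551 had 3 and 9. MouseID-453328 had 1 and 6, and MouseID-498748 and MouseID-498749 had 1 and 1 each. In those last mice the per-mouse values below rest on single cells, for cells with Rspo1 in MouseID-453328 and for both kinds in the others. This division was chosen after the values were seen, so what follows has no test.

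**Figure D4:**
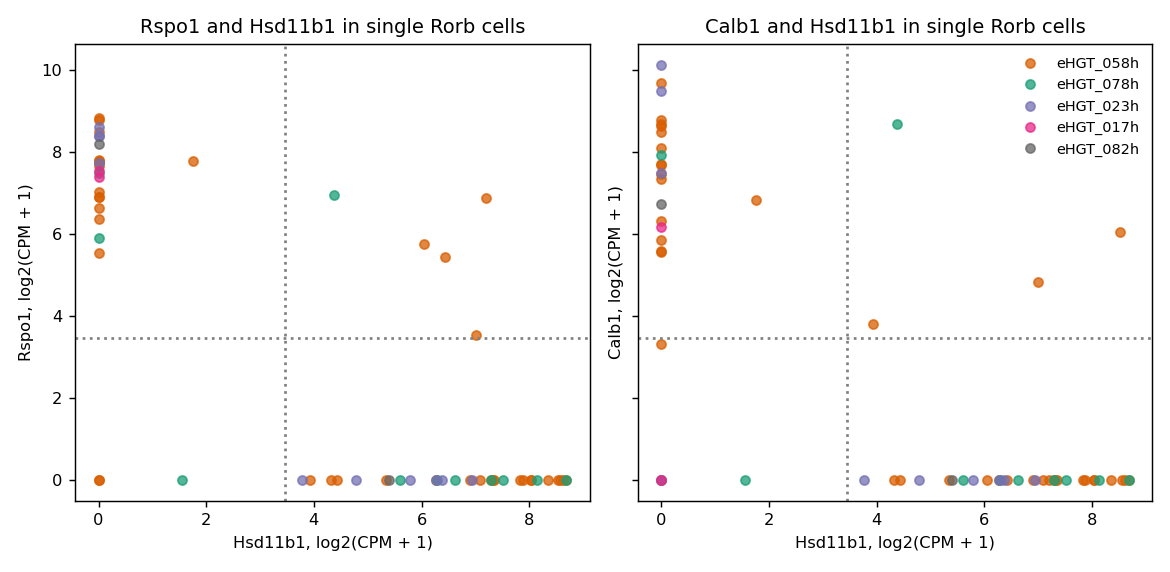
Rspo1 (left) and Calb1 (right) against Hsd11b1 in each of the 65 Rorb cells, as log2(CPM + 1), coloured by enhancer, with dotted lines at 10 CPM. Most points lie along one axis or the other, with 5 cells above both lines for Rspo1 and 4 for Calb1.

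In the cells with Rspo1 the genes Calb1, Cux1, Cck, Pparg and Bdnf were at higher levels. The genes given here and in the next paragraph are examples from the markers and lists. How many genes were higher on either side was not counted. Calb1, the calcium buffer calbindin, reached 10 CPM in 20 of 24 of them and in 2 of 33 cells with Hsd11b1. Averaged per mouse over the 7 mice, it was 219 ± 229 CPM in cells with Rspo1 and 1.3 ± 2.72 CPM in cells with Hsd11b1. Cux1, an upper-layer homeobox factor, was 150 ± 80.5 CPM against 21.6 ± 9.47 CPM, higher in 7 of 7 mice. Cck, the peptide cholecystokinin, was 1637 ± 522 CPM against 283 ± 461 CPM, also in 7 of 7. Pparg stood at 97.2 ± 62.5 CPM against 11.9 ± 14 CPM, and the growth factor gene Bdnf at 148 ± 107 CPM against 37.8 ± 18.6 CPM, both higher in 6 of 7 mice.

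The cells with Hsd11b1 carried Deptor in 33 of 33 and Endou in 31 of 33, where the cells with Rspo1 had them in 12 and 11 of 24. Etv1, a layer 5 transcription factor, was 2.1 ± 3.82 CPM in cells with Rspo1 and 38.7 ± 19 CPM in cells with Hsd11b1, and lower with Rspo1 in 7 of 7 mice. Galntl6 was 129 ± 134 CPM against 810 ± 607 CPM, the AMPA receptor subunit gene Gria3 50.4 ± 59 CPM against 262 ± 111 CPM, and the serotonin receptor gene Htr1a 0.808 ± 2.14 CPM against 29.1 ± 22.6 CPM. Fezf2, below its threshold in all of them, reached 10 CPM in 1 of 24 cells with Rspo1 and in 20 of 33 cells with Hsd11b1. Rorb itself was alike, with medians of 379 and 363 CPM. Scnn1a reached 10 CPM in 8 and in 20 cells, and Kcnh5 and Grik1, which were called in Rorb cells as a whole, were present on both sides (23 of 24 and 33 of 33 cells for Kcnh5, 22 of 24 and 31 of 33 for Grik1). Read depth was alike, with medians of 588017 reads in cells with Rspo1 and 577920 in cells with Hsd11b1, but the 24 cells with Rspo1 had a median of 8442.5 genes detected and the 33 cells with Hsd11b1 had 10549. The part that this gap plays in the differences was not tested.

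Of the 2 genes, Rspo1 was the one called in Rorb cells as a whole. It averaged 7.41, 178, 82.1, 35.4 and 134 CPM in the Rorb cells of mice MouseID-453328, MouseID-458159, MouseID-463481, MouseID-497551 and MouseID-497548, against 5.76, 4, 30.6, 3.22 and 2.63 CPM in their other glutamatergic cells. MouseID-453328 had almost no difference, and the log2 difference over all 5 was 3.04 ± 0.7 (SE, limma adjusted p = 0.0196), a call lost without MouseID-497551 (adjusted p = 0.0744). Its family moved apart, since Rspo2 fell to 1.01 ± 1.72 CPM in Rorb cells, against 25.7 ± 12.5 CPM in the others (log2 -3.92 ± 0.51). The promoter windows of Rspo1 and Hsd11b1 are printed here because these 2 genes divide the Rorb cells, and 1 of the 3 windows of Pparg because that gene rose most against Fezf2 cells. Each is a RefSeq window of 300 bases around an annotated start (GRCm38.p6, the build also called mm10), in lower case, with the motif AGGTCA or its reverse complement in capitals.
Rspo1, chr4:124986180-124986479, + strand: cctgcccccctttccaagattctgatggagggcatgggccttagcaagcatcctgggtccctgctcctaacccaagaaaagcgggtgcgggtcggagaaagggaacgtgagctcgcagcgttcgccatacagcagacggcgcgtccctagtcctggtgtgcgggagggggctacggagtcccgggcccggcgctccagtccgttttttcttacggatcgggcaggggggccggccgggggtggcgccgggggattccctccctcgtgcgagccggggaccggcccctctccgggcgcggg
Hsd11b1, chr1:193242311-193242610, - strand: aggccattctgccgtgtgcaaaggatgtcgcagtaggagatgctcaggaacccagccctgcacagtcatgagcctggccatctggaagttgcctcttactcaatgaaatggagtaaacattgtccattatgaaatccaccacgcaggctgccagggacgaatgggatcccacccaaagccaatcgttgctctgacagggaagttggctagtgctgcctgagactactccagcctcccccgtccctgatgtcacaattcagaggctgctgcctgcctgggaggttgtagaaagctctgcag
Pparg, chr6:115360894-115361193, + strand: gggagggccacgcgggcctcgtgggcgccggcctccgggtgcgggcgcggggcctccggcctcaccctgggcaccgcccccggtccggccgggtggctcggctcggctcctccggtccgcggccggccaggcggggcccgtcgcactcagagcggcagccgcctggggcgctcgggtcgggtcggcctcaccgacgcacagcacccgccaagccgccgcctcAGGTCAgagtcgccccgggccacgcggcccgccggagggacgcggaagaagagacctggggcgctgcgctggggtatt
The windows of Rspo1 and Hsd11b1 held no AGGTCA on either strand, and the window of Pparg shown held 1. Of the other Pparg windows, the one starting at 115362099 held 1 and the one starting at 115421816 held 0. Over all 32851 windows 16.3% held the motif on 1 strand or the other. It was in 12.4% of 566 windows of genes called higher, 12.1% of 379 windows of genes called lower and 11.9% of 12399 windows of tested genes. A match is a description of these letters and not a binding site.

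More potassium channel genes rose than fell in Rorb cells when these were set against the mixed other glutamatergic cells. Of 35 voltage-gated potassium channel genes, 8 were higher and 1 was lower against the other glutamatergic cells, with a median log2 difference of 0.68 over the list against -0.05 over all genes tested. Over all genes tested 4.54% were higher and 3.26% lower, which is the background for this list and for the lists below. Against Fezf2 cells alone, 0 of 33 potassium channel genes and 0 of 21 glutamate receptor subunits were called in either direction. Their median log2 differences there were 0.52 and 0.37, and 2.57% of all genes were called. The values that follow are against the other glutamatergic cells. Kcnq3, a subunit of the M-current, had 421 ± 138 CPM in Rorb cells against 116 ± 67.3 CPM, and Kcnq5 had 387 ± 115 CPM against 163 ± 30.4 CPM. Kcng1, a silent modifier subunit, fell to 1.78 ± 1.73 CPM in Rorb cells, against 34.9 ± 15.2 CPM. Of 21 glutamate receptor subunits tested, 6 were higher and 2 were lower, with a median log2 difference of 0.39. Grm5 had 512 ± 161 CPM in Rorb cells against 232 ± 32.1 CPM, and its log2 difference without MouseID-453328 was 0.95, under the limit of 1. Leaving out each mouse in turn gave 5 to 9 higher potassium channel genes and 2 to 7 higher glutamate receptor genes, with 5 potassium channel genes without MouseID-497548 or MouseID-497551 and 2 glutamate receptor genes without MouseID-453328. The lower ones were Grik4 (3.6 ± 4.5 CPM in Rorb cells against 16.4 ± 4.27 CPM) and Grm8 (9.67 ± 14.3 CPM against 54.7 ± 23.3 CPM).

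Gene length moved with these rises. The genes called higher spanned a median of 158 kb in the genome, against 19.4 kb for those called lower and 25.5 kb for all tested genes, with a span known for 89.8%, 93.5% and 91.7% of them. In the longest of 5 equal bins of genes (82.5 kb and more, 2418 genes) the median log2 difference was 0.48, and 379 genes were higher and 76 lower. In the shortest bin, also of 2418 genes, it was -0.22, with 21 higher and 95 lower. All 5 mice had this order, with medians between 0.33 and 0.68 in the longest bin and between -0.41 and -0.09 in the shortest. When the values of each profile were centred within these bins, the potassium channel list kept 2 higher and 1 lower genes and the glutamate receptor list had 1 higher and 5 lower. The part of gene span in these rises was not tested.

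Receptors for modulators moved in both directions. Of 20 receptor genes for monoamines and acetylcholine tested, 6 were lower and 2 were higher in Rorb cells, with a median log2 difference of -0.3, and 3 were lower without MouseID-453328. Drd1, the D1 dopamine receptor, was at 0 in the Rorb cells of all 5 mice and at 12.5 ± 3.09 CPM in their other glutamatergic cells. The adrenergic receptor gene Adra1b had 1.14 ± 1.08 CPM in Rorb cells against 18.4 ± 8.26 CPM, and Adra1a 1.48 ± 1.98 CPM against 14.5 ± 7.87 CPM. Chrm2, an inhibitory muscarinic receptor, was higher with 81.9 ± 51.6 CPM against 14.3 ± 3.41 CPM (log2 2.29 ± 0.26). Centred by gene span, the list had 6 lower and 1 higher. Of 17 neuropeptide genes 7 passed the filter on low values, with 5 lower and 0 higher and a median log2 difference of -1.6. The number lower was 1 without MouseID-497551, 2 without MouseID-453328 and 3 without MouseID-497548. Penk, the enkephalin precursor, had 0.755 ± 1.69 CPM in Rorb cells against 16.9 ± 30.9 CPM. Penk and Drd1 passed the filter through the other cells alone, so a fall was the only call open to them. Of 14 GABA receptor subunits 3 were lower and none was higher, where 3.26% of all tested genes were lower, and the median log2 difference of the list was 0.03. None was lower without MouseID-463481 and 1 was without MouseID-458159. Against Fezf2 cells, 1 of 21 receptor genes for monoamines and acetylcholine was higher and 0 were lower. In that comparison 0 of 7 neuropeptide genes and 0 of 14 GABA receptor subunits were called, where 2.57% of all genes were.

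Immediate early genes, which neurons switch on with activity, had a median log2 difference of 0.03. Of 19 tested 3 were lower and none was higher, and without MouseID-497551 it was 1 lower and 1 higher. The lower ones were Nptx2 with 28.5 ± 17.3 CPM in Rorb cells against 68.4 ± 19.3 CPM, Bdnf with 80.7 ± 52.4 CPM against 270 ± 87.3 CPM, and Nr4a2 with 38.9 ± 19.8 CPM against 169 ± 127 CPM. The transcription factor gene Egr1 had 1715 ± 505 CPM in Rorb cells against 1100 ± 396 CPM, and was not called because its log2 difference of 0.68 ± 0.11 was under 1. Against Fezf2 cells alone, 0 of the 19 genes were called. The summed level of the 19 genes was higher in Rorb cells in 5 of 5 mice. It was 3680, 5982, 4225, 6108 and 5979 CPM in the Rorb cells of mice MouseID-453328, MouseID-458159, MouseID-463481, MouseID-497551 and MouseID-497548, against 3460, 5314, 3097, 4996 and 4580 CPM in their other glutamatergic cells, with no test.

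**Figure D5:**
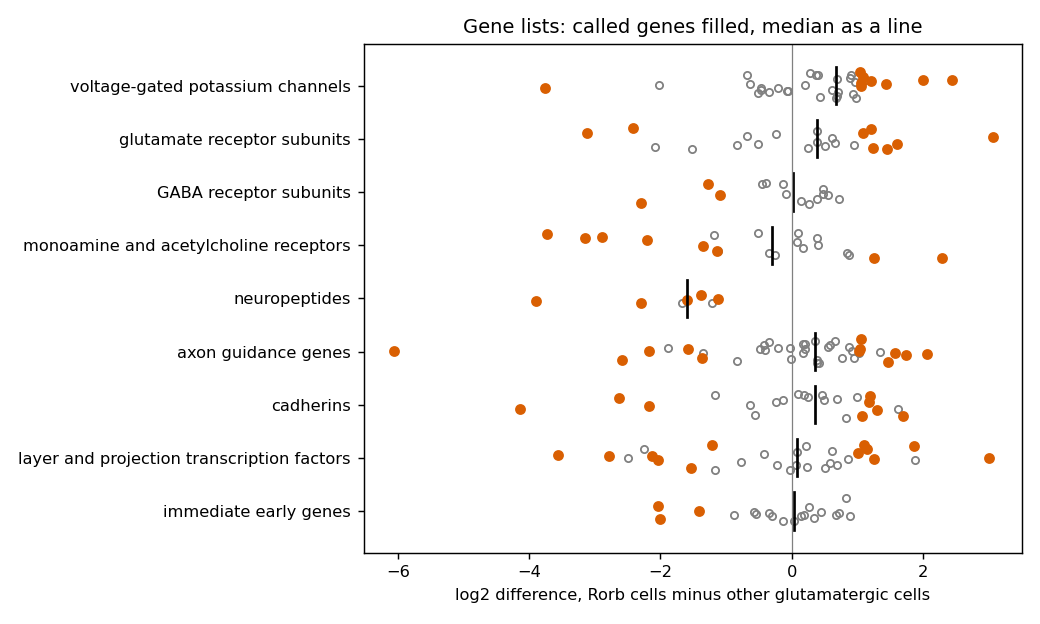
Log2 difference between Rorb cells and other glutamatergic cells for the tested genes of 9 lists, with filled points for called genes, open points for genes not called and a black line for the median of the list. Potassium channels lie mostly right of 0 and neuropeptides left of it, with medians of 0.68 and -1.6.

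Transcription factors of cortical layers moved in both directions, with 6 higher and 6 lower of 29 tested and a median log2 difference of 0.08. Cux2, an upper-layer homeobox factor, had 51.6 ± 14.2 CPM in Rorb cells against 14.7 ± 6.82 CPM, and the POU factor gene Pou3f3 had 44.1 ± 4.08 CPM against 20.4 ± 5.5 CPM. The SOX factor gene Sox5, which acts in deep-layer corticofugal neurons, fell to 9.53 ± 14.4 CPM in Rorb cells, against 64 ± 22 CPM. Lmo3 had 25.6 ± 7.1 CPM against 115 ± 28.7 CPM, Id2 106 ± 39.8 CPM against 403 ± 346 CPM, and Bcl6 1.57 ± 1.61 CPM against 20.3 ± 23 CPM. Of 9 markers of layer 2/3 IT neurons Cux2 was the only one higher, and Rrad, a small GTPase of the RGK family, was lower with 0.153 ± 0.341 CPM in Rorb cells against 16.8 ± 25.7 CPM. The median log2 difference of these 9 was -1.36, and with a filter at 10 CPM it was 0.36 over the 4 genes left. Of the markers of layer 6 tested, 1 of 4 for CT neurons, 2 of 3 for IT neurons and 1 of 1 for layer 6b were lower and none was higher, with Cplx3 (subplate and layer 6b) at 0.588 ± 1.32 CPM in Rorb cells against 16.2 ± 5.0 CPM. These lists held 6, 5 and 5 genes before the filter on low values. Cplx3 and Rrad passed it through the other cells alone, so a fall was the only call open to them. Against Fezf2 cells 0 of the layer 6 markers were called.

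Adhesion and guidance genes were also split. Of 22 cadherins tested 5 were higher and 3 were lower. Cdh12 had 1144 ± 299 CPM in Rorb cells against 355 ± 116 CPM, and Cdh9 had 1.2 ± 2.62 CPM against 27.7 ± 12.9 CPM. Of 39 axon guidance genes 7 were higher and 5 were lower, with 4 higher without MouseID-453328, 11 higher without MouseID-458159 and 2 lower without MouseID-463481. The netrin receptor genes Dcc (256 ± 79.6 CPM against 69.9 ± 41.9 CPM) and Unc5d (438 ± 125 CPM against 136 ± 51.2 CPM) rose, while the semaphorin receptor gene Plxna1 fell to 20.8 ± 10 CPM in Rorb cells, against 51.2 ± 12.3 CPM. Centred by gene span, the cadherins had 1 higher and 2 lower and the guidance genes 4 higher and 6 lower. Against Fezf2 cells, 0 of 22 cadherins were higher and 1 was lower, and of 39 guidance genes 2 were higher and 1 lower. Of 11 genes that all glutamatergic neurons express, none was called against the other glutamatergic cells, with a median log2 difference of 0.6.

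The comparison of eHGT_058h with eHGT_078h within Rorb cells was not run, since 1 eHGT_078h mouse had at least 5 such cells and 2 were required. Side by side, Rorb cells of MouseID-453328 (eHGT_078h) averaged 7.41 CPM of Rspo1, against 178, 82.1 and 35.4 CPM in eHGT_058h mice MouseID-458159, MouseID-463481 and MouseID-497551. Galntl6 averaged 1236 CPM in MouseID-453328, against 139, 509 and 660 CPM in those mice. Fezf2 averaged 25.4 CPM against 5.46, 14.6 and 11.8 CPM.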

How the data were processed

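Single cells sorted for SYFP2 from VISp of 33 mice were profiled by SMARTerv4 RNA-seq. The submitters' processing notes name STAR and the build mm10, and the authors deposited 1 table of CPM values for 1483 cells and 45768 genes. How reads in introns were counted is not given in the sources used here. The values of a cell were whole multiples of 1 read (within 0.01 read for 100% of values), which gave back its read total. Cell names were all distinct (1483).

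Mice are the replicates. Profiles are mean CPM per mouse and cell class (at least 5 cells), tested in R 4.3.3 with limma 3.58.1 (trend and robust) on log2(CPM + 1), for genes of at least 2 CPM on average. Benjamini-Hochberg adjustment covered all genes tested. limma returned known changes in a test on simulated data with even noise. That simulation held no differences in cell make-up between mice, so it does not cover them. Shares were compared by exact permutation over mice. Named genes were the 10 (or 5) largest called changes in each direction whose higher class had 20 CPM or more and whose direction was shared by every mouse. The members and gene lists were chosen with earlier results of these data known. Count-model alternatives planned for this table were not run, because its unit is CPM. limma voom on recovered reads and median-of-ratios scaling took their place. Intervals and limits for 0 reads cover counting error only.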

Additional observations from a re-analysis of the deposited data

Results flagged for a closer look

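Of 47 sets of per-mouse differences looked at, 5 had 1 mouse far from the others. The rule flags about 1 in 20 among unrelated sets that were not chosen beforehand. These sets share mice and some genes, and most were chosen for a shared direction, so that rate is not theirs. Against other glutamatergic cells, Hsd11b1 was highest in MouseID-453328 at 6.0, with the next mouse at 0.62 and the lowest at -0.51. In MouseID-453328, 1 of 40 other glutamatergic cells had both Rorb and Fezf2, the lowest share of the 5 mice, and its part here was not tested. Whrn was also highest in MouseID-453328, at 4.76, with the next at 1.97 and the lowest at 0.92. Cux2 was highest in MouseID-458159 at 3.68, with the next at 1.73 and the lowest at 1.1. Adamts17 was lowest in MouseID-497551 at 0.56, with the next at 2.68 and the highest at 3.33. Against cells with neither Rorb nor Fezf2, Grik1 was lowest in MouseID-463481 at 2.67, with the next at 6.9 and the highest at 7.3.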

How the results depend on the processing

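The comparison of Rorb cells with other glutamatergic cells gave 1028 calls, and it gave 490 with a pseudocount of 10, 414 without a filter on low values, 1950 from the mean of log2 values over cells, 287 in the letter G mice and 2267 without the cells with both Rorb and Fezf2. Leaving out each mouse gave 631 to 1243. Against Fezf2 cells the 335 calls became 178 with a pseudocount of 10, 11 without a filter, 1023 from the mean of log2 values, 533 with voom on recovered reads, 173 with at least 3 cells per profile, 1 with at least 8 cells and 206 with Gad1 and Gad2 under 1 CPM. In the letter G mice limma called 0, with 2679 genes at an unadjusted p under 0.05. Leaving out each mouse gave 1 to 612. Against cells with neither gene the 2070 calls became 1073 with a pseudocount of 10 and 930 in the letter G mice, and 1579 to 2165 when a mouse was left out. Mouse was the replicate block of these fits, paired because both classes came from the same animal, and without the replicate block the counts were 1019, 707 and 2341. No named gene reversed in any alternative run. The share differences stayed between 25.6 and 54.2 points for glutamatergic cells and between 21.02 and 49.6 points for all cells. The difference in genes detected was -255 at 50000 reads and -462 at 300000 reads, and -541 to -314 when a mouse was left out. voom, median-of-ratios scaling and centring by gene span were chosen after seeing the data. The planned count models were not run, because the deposited table is in CPM, and the alternatives for eHGT_058h against eHGT_078h within Rorb cells were not run, as that comparison was not. The letter J has 2 mice with both classes and was not fitted alone. The comparisons rest on 5 mice with Rorb profiles and on 7 to 17 Rorb cells in each. Against Fezf2 cells 4 of these mice had both classes, and some Fezf2 profiles came from mice without a Rorb profile.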
